A study of Arabidopsis thaliana with 8 samples.

Results

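The transcripts described here are those of 4 Arabidopsis thaliana genes that act in cell division or in the upkeep of DNA: FBL17 (AT3G54650), the phragmoplast kinesin AT4G14330, the type IA DNA topoisomerase AT4G31210 and the MutY-like DNA glycosylase AT4G12740. Each is measured by a single spot, numbered 1588, 3612, 2576 and 4402 in that order, among 3439 spots on the array. All 4 passed the filter on spots listed at 0 and belong to the 646 tested rows, of 3261, that carry the name of 1 gene. The genes were picked by locus with their difference between the plant lines already known, so that difference, over all arrays and in replicates 1-2 and 3-4, is given as a description with no test.

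Total RNA of 2 kinds of plants, both of ecotype Columbia 0, was hybridised to 8 single-colour arrays, 4 per kind. The first group is the wild type (WT). The second is an antisense line of tatA, which the labels also call a mutant and describe as impaired in the twin-arginine route that moves folded proteins into or across the thylakoid membrane. Tissue, age, growth conditions, the promoter driving the antisense transcript and the number of plants or lines behind each sample are not given in the labels. Nor is it said that replicates came from separate plants, so every p-value measures the spread between these samples, which may be technical. Markers of leaf, shoot meristem, root, pollen or stomatal cells cannot place the tissue, since 0 of the 25 loci chosen for this were among the named spots. In bulk RNA, a change in the share of dividing cells and a change in transcript per cell cannot be told apart, in either direction. Array medians ran from 0.365 to 0.531 on the deposited intensity scale, whose ceiling is 100, with 172 to 248 spots per array listed at 0.

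F-box proteins lend specificity to SCF ubiquitin ligases. FBL17 marks inhibitors of cyclin-dependent kinases for destruction, which lets cells replicate their DNA, and it is best known from the divisions of the male germ line in pollen. The phragmoplast is the microtubule array that builds the new cell wall between daughter nuclei in plants, and the kinesin AT4G14330 (PAKRP2) is a motor found there, linked to the vesicles that feed the growing cell plate. Type IA topoisomerases relax supercoiled DNA by cutting a single strand and passing the other through the gap. MutY, known from Escherichia coli, removes an adenine that was wrongly paired with oxidised guanine.

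Both cell division genes had higher intensities on every tatA array than on every WT array. Both DNA maintenance genes had lower intensities on every tatA array than on every WT array. After quantile normalization the differences, tatA minus WT on the log2 scale, were 3.16 (SE 0.34) for FBL17, 4.27 (SE 1.25) for the kinesin, -1.48 (SE 0.32) for the topoisomerase and -1.71 (SE 0.37) for the MutY homologue (n = 4 arrays per group). Each SE given here takes the 4 arrays of a group as independent. Across rows, arrays of the same line and replicate pair had a correlation of 0.546, so these SEs may be too small. Over all tested rows, normalized tatA values lay wholly above WT in 16.6% and wholly below it in 18.9%. Nothing is read from the members' count, because the same contrast chose them.

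**Figure D1:**
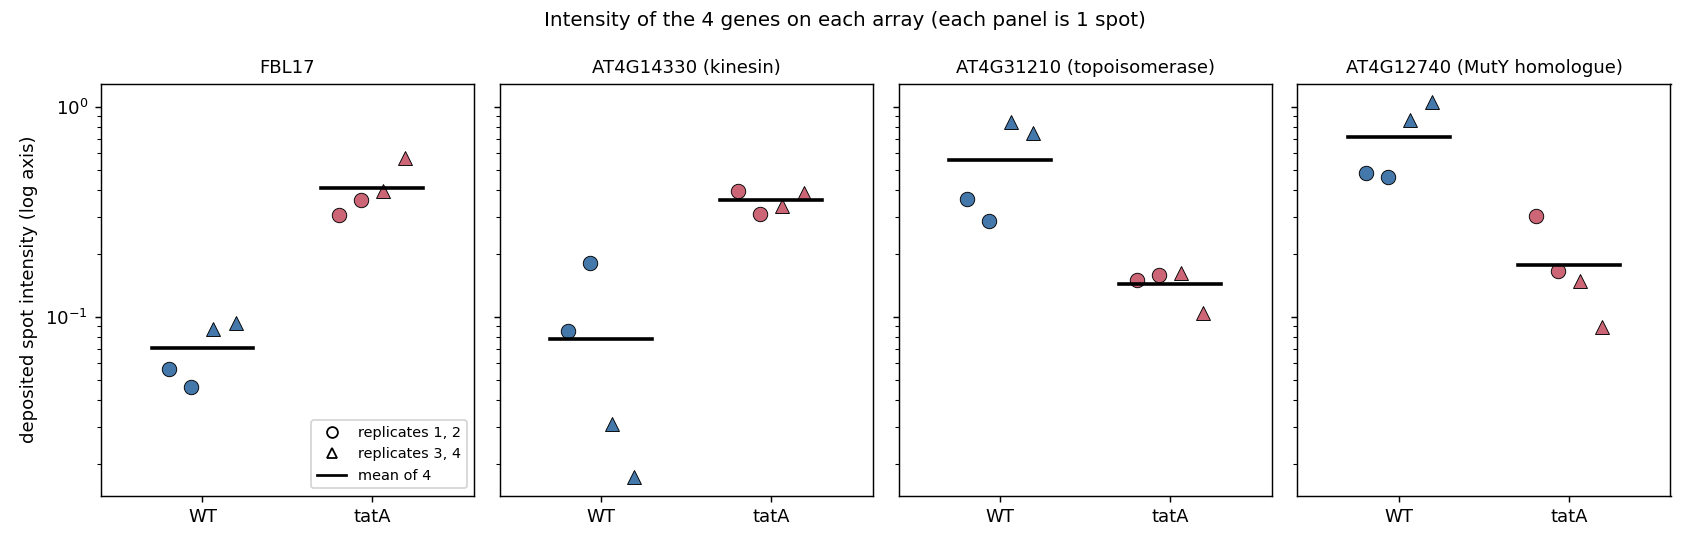
Deposited spot intensity (log axis) of each gene on the 4 WT and 4 tatA arrays, with circles for replicates 1 and 2, triangles for replicates 3 and 4, and a line at the mean of 4. The groups do not overlap in any panel, and the WT triangles lie below the WT circles for the kinesin and above them for the other 3 genes. Levels of different spots are not comparable with each other.

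FBL17 had intensities of 0.0564, 0.0464, 0.0872 and 0.0940 on WT replicates 1 to 4. On tatA replicates 1 to 4 they were 0.307, 0.361, 0.398 and 0.569. The lowest tatA value was 3.26 times the highest WT value, the widest such gap among the 4 genes. Group means were 0.0710 ± 0.0232 in WT and 0.408 ± 0.113 in tatA (SD, n = 4 arrays), a ratio of 5.75. This ratio was much alike in both replicate pairs, at 6.49 in replicates 1-2 and 5.34 in replicates 3-4. In log2 terms after normalization the differences were 3.27 and 3.04. Intensities were higher in replicates 3-4 than in 1-2 in both lines, by 1.76 times in WT and 1.45 times in tatA, so that the step between pairs left the contrast nearly as it was.

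The size of the FBL17 difference depends on the scale. It was 2.55 on the deposited scale and 1.73 with an offset of 0.118 added before log2. All 4 WT intensities of FBL17 lie below that offset. The difference was 2.51 with values centred on neighbouring spot numbers.

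The kinesin AT4G14330 had WT intensities of 0.0855, 0.180, 0.0308 and 0.0173 for replicates 1 to 4. Its tatA intensities were 0.398, 0.310, 0.338 and 0.388. The tatA arrays thus agreed closely, while WT replicates 3 and 4 lay well below WT replicates 1 and 2. Means were 0.0783 ± 0.0737 in WT, with an SD almost as large as the mean, and 0.358 ± 0.0419 in tatA (SD, n = 4 arrays), a ratio of 4.58. The ratio of tatA to WT was 2.67 in replicates 1-2 and 15.1 in replicates 3-4. This contrast between pairs lay in WT, where the mean of replicates 1-2 was 5.51 times that of replicates 3-4, against 1.03 times in the opposite direction in tatA.

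Normalization stretched the difference of this dim kinesin spot. On WT replicates 3 and 4 the log2 of its deposited intensity was -5.02 and -5.85, and after quantile normalization it was -8.04 and -8.12. The step from WT replicates 1-2 to 3-4 was -2.42 on the deposited log2 scale and -5.00 after normalization. A normalized WT step of that size or larger was found in 1.90% of all rows. Likewise the difference in replicates 3-4 was 3.97 on the deposited scale and 6.77 after normalization, while in replicates 1-2 it was 1.50 and 1.76. Over all arrays the kinesin difference was 2.74 on the deposited scale, 3.09 with median centring, 3.13 with 75th percentile scaling, 3.17 with every spot holding a 0 left out, and 1.57 with the offset. The sign was the same in all of these settings. The value of 4.27 lies near the upper end of them, below the 4.35 found when no spot was left out for zeros.

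**Figure D2:**
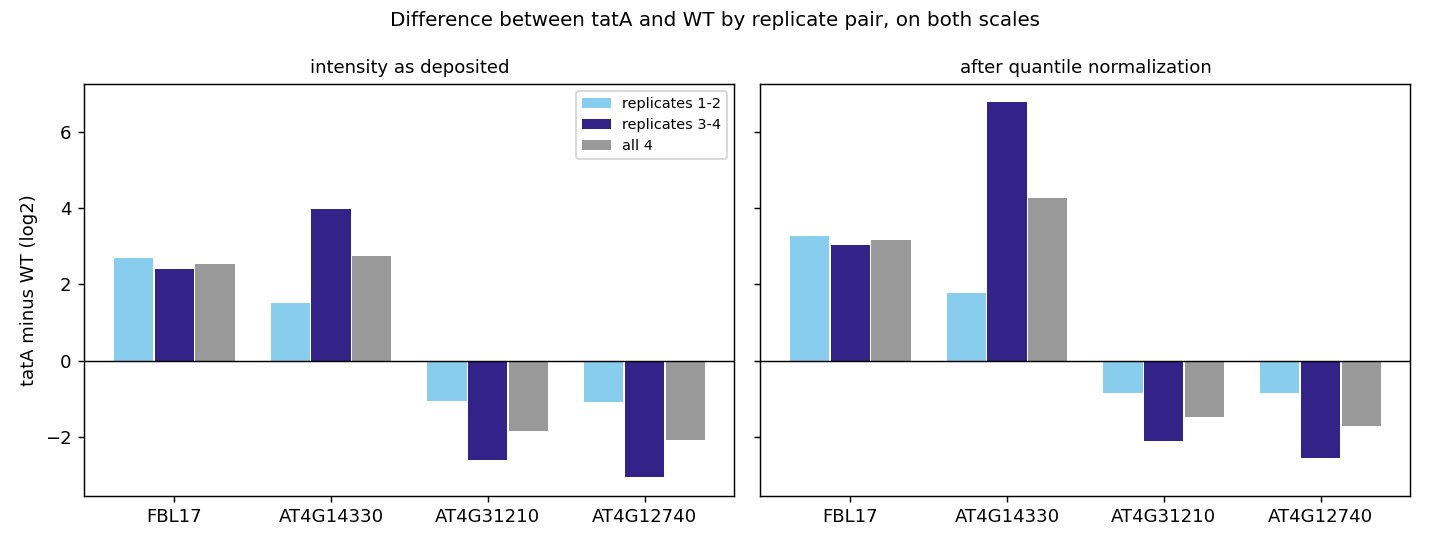
Difference between tatA and WT (log2) for each gene in replicates 1-2, replicates 3-4 and all 4, on the deposited intensity scale (left) and after quantile normalization (right). FBL17 is even between the pairs, the other 3 genes differ more in replicates 3-4, and the kinesin bar for replicates 3-4 goes from 3.97 to 6.77 with normalization.

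The topoisomerase AT4G31210 had WT intensities of 0.364, 0.286, 0.841 and 0.751 for replicates 1 to 4. Its tatA intensities were 0.150, 0.159, 0.161 and 0.104. The 4 tatA arrays lay close together, and WT replicates 3 and 4 lay above WT replicates 1 and 2. Means were 0.560 ± 0.276 in WT and 0.144 ± 0.0267 in tatA (SD, n = 4 arrays), a ratio of 3.90. WT exceeded tatA by 2.10 times in replicates 1-2 and by 5.99 times in replicates 3-4. Between the pairs the WT mean differed by 2.45 times and the tatA mean by 1.16 times. The normalized WT step of 0.99 was matched or exceeded in size by 16.1% of rows.

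The MutY homologue AT4G12740 had WT intensities of 0.482, 0.465, 0.861 and 1.05 for replicates 1 to 4. In tatA they were 0.301, 0.165, 0.147 and 0.0898. Again WT replicates 3 and 4 were the highest, and here tatA replicates 3 and 4 were also the lowest of their group. Means were 0.714 ± 0.288 in WT and 0.176 ± 0.0893 in tatA (SD, n = 4 arrays), a ratio of 4.06, with 2.03 in replicates 1-2 and 8.05 in replicates 3-4. The 2 lines moved apart between the pairs, with WT higher by 2.02 times and tatA lower by 1.96 times in replicates 3-4. The lowest WT value was 1.55 times the highest tatA value, against 1.77 times for the topoisomerase and 1.72 times, in the other direction, for the kinesin.

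For both DNA maintenance genes the log2 difference was nearly the same in replicates 1-2 (-0.86 for each) and grew in size in replicates 3-4 (-2.11 for the topoisomerase and -2.55 for the MutY homologue). On the deposited scale the differences over all arrays were -1.84 and -2.07, and with the offset they were -1.03 and -1.22. The deposited scale carries a shift of the whole table, whose median row had a log2 difference of -0.47 there and of -0.09 after quantile normalization. A difference larger by over 1 in replicates 3-4 than in 1-2, as found for these genes and the kinesin, occurred in 12.1% of all rows. The pairs were part of how the genes were chosen, so nothing is read from that comparison. What a replicate pair stands for is not given in the labels, and its part in these values was not tested.

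**Figure D3:**
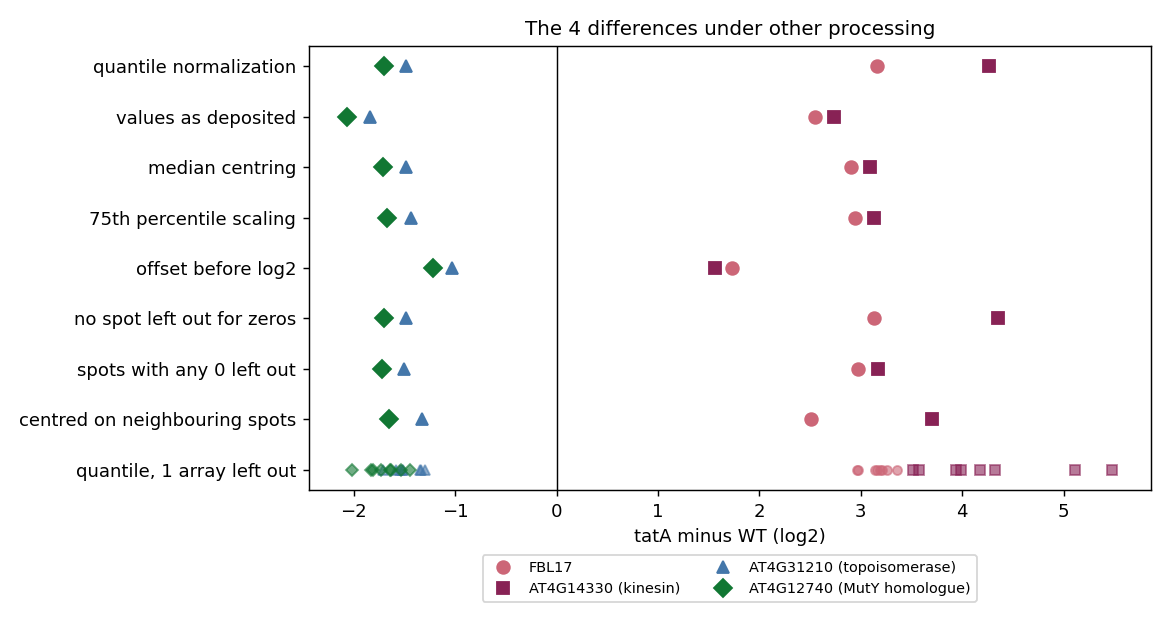
Difference between tatA and WT (log2) for the 4 genes under 8 processing settings, with a last line for the fits that leave out 1 array. FBL17 and the kinesin stay above 0 and the topoisomerase and the MutY homologue stay below 0 in each setting drawn, and the kinesin spreads most, from 1.57 to 5.48.

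Arrays of the same pair and line also differed from each other, to an extent that varied by gene. For the kinesin, WT replicates 1 and 2 differed by 1.13 in normalized log2 value, where the median row differed by 0.17 and the row at the 90th percentile by 0.74. For FBL17 the same pair differed by 0.55. The MutY homologue differed by 0.07 there, but by 0.85 between tatA replicates 1 and 2 (median row 0.26). The topoisomerase had its largest within-pair difference, 0.50, between tatA replicates 3 and 4 (median row 0.22).

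The spots numbered next to a member were read as a check on its surroundings. The table holds 11 such spots within 2 numbers of a member. All 5 beside the genes lower in tatA had a lower deposited mean in tatA, and 3 of the 6 beside the genes higher in tatA had a higher one. Of all spots, 68.4% had a lower deposited mean in tatA. Spot 2575, just before the topoisomerase, had a WT range of 0.797 to 1.07 and a tatA range of 0.0657 to 0.254, lower in tatA like the topoisomerase. Spot 2577, just after it, was bright on all arrays, from 9.08 to 17.0. Next to FBL17, AT1G06510 (spot 1587) was lower in tatA, averaging 0.903 in WT and 0.457 in tatA, opposite to FBL17. Next to the kinesin, AT1G13370 (spot 3613) was also opposite, averaging 0.277 in WT and 0.0940 in tatA. With each value centred on the 10 nearest spots on each side, the differences were 2.51 for FBL17, 3.70 for the kinesin, -1.33 for the topoisomerase and -1.65 for the MutY homologue. The layout behind the spot numbers was not given in the sources used here, and its part in these values was not tested beyond that centring.

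Profiles over the 8 arrays were compared by the root mean square difference of normalized log2 values, each profile centred on its own mean, against 598 other named genes with no 0 on any array. These likenesses include the difference between lines and the step between replicate pairs, and are a description. A near gene therefore tends to share the member's sign and pair pattern by the way it was chosen, and nothing is read from that sharing. The topoisomerase was the nearest of all to the MutY homologue, at 0.41, where the median gene lay at 1.04. In the other direction the MutY homologue ranked 11 for the topoisomerase, whose nearest genes were CCL (0.28), AT2G37580 (0.34) and AT2G43990 (0.35). After the topoisomerase, the genes nearest to the MutY homologue were AT4G24910 and AT4G20820, both at 0.41. These 5 genes had log2 differences from -1.33 for CCL to -0.83 for AT2G37580, each smaller in size in replicates 1-2 than in 3-4, as in both members.

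The cell division genes did not resemble each other in this measure. FBL17 and the kinesin lay 2.14 apart, which placed the kinesin at rank 547 of 598 for FBL17. This distance includes the kinesin values of WT replicates 3 and 4 that normalization stretched. They were -8.04 and -8.12, against -5.02 and -5.85 on the deposited log2 scale. Distances on the deposited scale were not computed, so the unlikeness holds for normalized values only. Nearest to FBL17 were AT3G23940 (0.50), AT3G01060 (0.54) and AT1G22700 (0.54), with log2 differences of 3.13, 2.23 and 3.81 that were also even between the pairs. Nearest to the kinesin, though far by this measure, were AT4G05490 (1.29), AT4G35660 (1.32) and AT3G56330 (1.51). Their log2 differences were 2.77, 2.71 and 2.34, and each was larger in replicates 3-4.

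Few other genes of division, DNA and chromatin could be recognised by name. The annotation gives symbols and synonyms but no descriptions, and most named spots carry a locus alone, so further genes of these kinds may be on the array without being counted. Lists of cell cycle, cytokinesis, replication, repair, SCF ligase, chromatin and plastid division genes found 4 named genes besides the members, and 6 more were added by their RefSeq names after the annotation was read. Of these 10, 9 could be tested, 1 rose and 1 fell at a limma adjusted p under 0.05, beside 32.1% called among all rows (15.3% higher and 16.8% lower). Their median log2 difference was -0.34 and that of all rows was -0.09. The lists for the cell cycle, cytokinesis, replication, SCF ligases and plastid division matched no gene besides the members, which does not show that the array lacks them.

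DME, a DNA glycosylase that removes methylated cytosine in the central cell of the female gametophyte, is the other DNA glycosylase in the lists. Its intensities were 0.488, 0.541, 0.487 and 0.548 on WT replicates 1 to 4, and 0.248, 0.220, 0.179 and 0.254 on tatA replicates 1 to 4. The groups did not overlap, and the WT means of the pairs differed by 1.01 times, against 2.02 times in the MutY homologue. The log2 change of DME was -0.87 with an SE of 0.20 (limma adjusted p = 0.0117), with differences of -0.93 and -0.81 in replicates 1-2 and 3-4. The call was lost when replicate pairs were taken as random blocks (adjusted p = 0.0876) and when each pair was averaged (0.183).

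DRT100, named for DNA-damage repair or toleration, had means of 0.0865 ± 0.0332 in WT and 0.151 ± 0.0458 in tatA (SD, n = 4 arrays), with overlapping groups. It rose by 1.33 (SE 0.40, limma adjusted p = 0.0336). The call was lost with median centring (0.0505), on the deposited scale (0.145), with values centred on neighbouring spots (0.0534), with pairs taken as random blocks (0.193) and with the pairs averaged (0.226). It was also lost on leaving out any array but WT replicate 4 or tatA replicate 2, with adjusted p up to 0.0901. Both DRT100 and DRT101, which shares that name, were counted here by name alone, which does not establish a part in DNA repair. DRT101 had a log2 value of -0.50 (limma adjusted p = 0.0878). It passed when the replicate number was a fixed block (0.0470), without WT replicate 1 (0.0399) and on the deposited scale (0.0180).

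The remaining genes did not pass the threshold over all rows. APTX, similar to the human enzyme aprataxin that clears failed ligation products from DNA ends, had a log2 value of 0.67 (limma adjusted p = 0.334), made of 1.99 in replicates 1-2 and -0.64 in replicates 3-4. Centred on neighbouring spots its value was 1.22 and passed (adjusted p = 0.0150). OSB1, an organellar protein that binds single-stranded DNA, had a value of -0.15 (adjusted p = 0.632). AT1G78790, whose RefSeq synonym is MHF2, had a value of -0.52 (adjusted p = 0.386). TRM31, which carries a motif for recruiting the microtubule organiser TON1, had a value of -0.42 (adjusted p = 0.428), with -1.05 in replicates 1-2 and 0.22 in replicates 3-4.

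Among chromatin genes, AT1G09200 encodes histone H3.1, the form of H3 laid down during DNA replication. It had means of 0.360 ± 0.0670 in WT and 0.228 ± 0.0560 in tatA (SD, n = 4 arrays) and a log2 value of -0.34 (limma adjusted p = 0.357). The H3.1 genes are near-identical copies, so a spot may read several of them. The H3.1 gene AT5G65360 was listed at 0 on all 8 arrays and was not tested. The gene chr31, whose RefSeq synonym is chromatin remodeling 31, had a value of -0.26 (adjusted p = 0.0776). It passed on the deposited scale (-0.61, adjusted p = 0.00398), where the median row was itself negative, and had a value of 0.33 when centred on neighbouring spots (adjusted p = 0.0759).

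**Figure D4:**
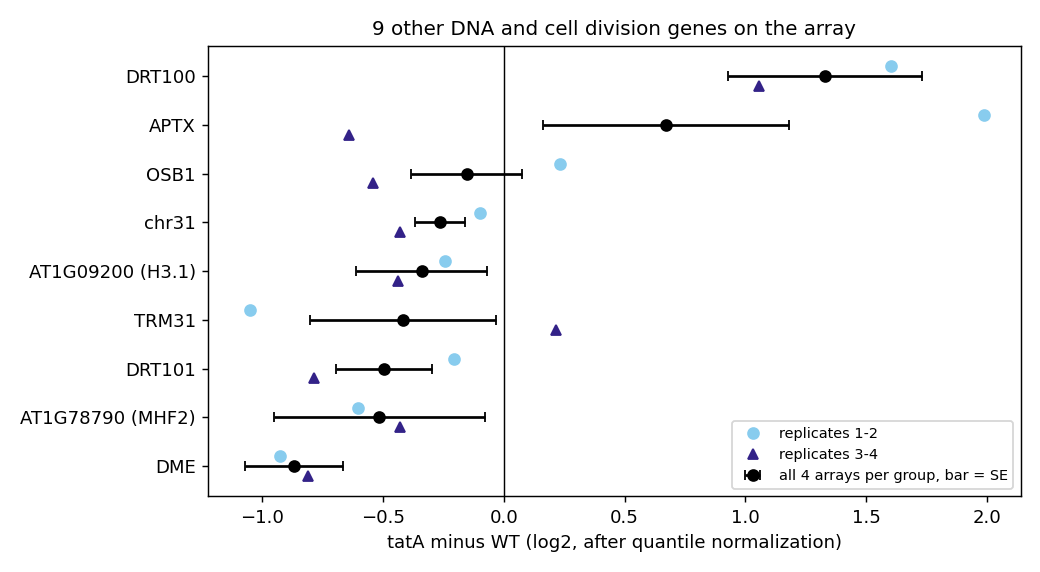
Difference between tatA and WT (log2, after quantile normalization) for the 9 other genes tested, with SE bars over 4 arrays per group (black), and the values of replicates 1-2 (circles) and 3-4 (triangles). DME and DRT100 passed, and APTX, OSB1 and TRM31 have pair values on opposite sides of 0.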

How the data were processed

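The deposited table holds spot intensity on a linear scale, 1 column per array. How the authors scanned, background-corrected or scaled the arrays was not given in the sources used here. Groups and replicate numbers come from the sample titles. The members and gene lists were chosen with earlier results of these data known.

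Of 3439 spots, 177 at 0 on more than 4 of 8 arrays were left out. Other zeros took the array's lowest value above 0, log2 was taken, and arrays were quantile normalized, since their log2 medians differed by up to 0.538. Spots of 1 gene were averaged, leaving 3261 rows. Of 692 spots with 1 gene in the platform annotation, 690 matched RefSeq (TAIR10.1), used for names only. RefSeq's table holds symbols and synonyms, so lists were matched on these and on loci.

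The lines were compared in R 4.3.3 by limma 3.58.1 (lmFit, then eBayes with a trend on intensity) in a two-sided test, adjusted over all rows by Benjamini-Hochberg. The fit and its adjustment included the members, whose own p-values are not reported, and no p-value was computed over the members as a set. Figures used matplotlib 3.10.9 in Python 3.11.15.

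Named are the members, the listed genes, the spots within 2 numbers of a member, and the 3 genes nearest in profile to each. Alternatives were other scalings, filters on dim spots, an offset (the 10th percentile of positive values), centring on neighbouring spots, no intensity trend, replicate blocks, pairs (replicates 1-2 and 3-4) taken as random blocks or averaged, and leaving out each array. The 6 genes added by name came after the annotation was read. Across rows, WT and tatA arrays of the same number deviated from their group means with correlations of 0.284, 0.311, 0.266 and 0.337 for replicates 1 to 4. All were over the limit of 0.1 set for pairing. The main fit still used no block, because no label states a pairing or says what a number marks. Counts with the replicate number as a block are given with the alternatives. The number of arrays limits precision.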

Additional observations from a re-analysis of the deposited data

How the results depend on the processing

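All 4 members kept their direction in each of the 15 alternatives run on them. Leaving out 1 array gave 2.97 to 3.36 for FBL17, 3.51 to 5.48 for the kinesin, -1.71 to -1.30 for the topoisomerase and -2.01 to -1.45 for the MutY homologue. FBL17 moved by more than its replicate SD on the deposited scale (2.55), with the offset (1.73) and centred on neighbouring spots (2.51), and the kinesin with the offset (1.57). The SD of normalized WT values was 2.93 for the kinesin and 0.476 for FBL17, so this rule allows the kinesin larger shifts. It does not rank the genes by how stable they are. The kinesin had the widest range of the 4. Over all rows 1046 passed (limma, 499 higher and 547 lower), 784 to 951 with 1 array left out, 1027 with the replicate number as a replicate block, 537 with pairs of replicates taken as random blocks and 57 with the pairs averaged. On the deposited scale 1390 passed, 310 higher and 1080 lower. Of the 3 listed genes tested besides the members, 1 passed, also in every fit with 1 array left out (1 to 1) and with the replicate block (1). On the deposited scale 2 passed. With the pairs taken as random blocks or averaged 0 passed in limma, and 1 had an unadjusted p under 0.05 in each. The replicate block changed the call of DRT101 and of no other listed or added gene. DRT100 and AT1G78790 were among the dimmest 25% of rows and have no value with those left out. The members were not run in that setting, so their values have no check against dim spots of this kind. In WT, FBL17 and the kinesin had lower mean intensities (0.0710 and 0.0783) than AT1G78790 (0.244). In tatA theirs were higher (0.408 and 0.358, against 0.143).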
